A study of Mus musculus with 12 samples.

Results

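Epha2, Relt, Chst15, Irf1, Prdm1 and Nrarp are 6 genes of mouse embryoid bodies with mean signals above the median of all genes. They were higher after activin than after the receptor inhibitor SB431542, although they are not among the classical nodal targets. Of 18193 measured genes they were chosen by that difference in wild-type or Trim33 knock-down arrays, with no stated threshold. All 8 of their probe sets were read, of 45101 on the array. The values that chose them are therefore a description below, with no test. Tests are given for the Smad4-null response, which the choice did not use, and for genotype differences averaged over the treatments. These averages are not the contrast of the choice, but they share its WT and Trim33-KD arrays, and it also asked for good signal.

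Embryoid bodies, free-floating aggregates of differentiating embryonic stem cells of strain 129, were grown without LIF and treated at day 2.5. The groups were Smad4-null with activin (Smad4-null-ac), Smad4-null with SB431542 (Smad4-null-SB), Trim33 knock-down with activin (Trim33-KD-ac) or SB431542 (Trim33-KD-SB), and wild type with activin (WT-ac) or SB431542 (WT-SB). Activin was given at 50 ng/ml and SB431542 at 10 mM as labelled, each for 2 h. Each of the 6 groups had 2 arrays, 12 in all, and their number limits the precision of every value. No group was left untreated, so a gap between the treatments does not say which of them moved a gene. Separate cultures for the replicates, the number of clones per mutant line and the parent of the mutant lines are not stated in the sources used here. The p-values may thus measure only technical spread, and differences of line and of genotype cannot be told apart.

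Activin and nodal bind paired receptor kinases that phosphorylate Smad2 and Smad3, and these enter the nucleus with their shared partner Smad4. SB431542 blocks the type I receptor kinases. Trim33, a ubiquitin ligase of the nucleus, binds chromatin as well as activated Smad2 and Smad3. In the early embryo this pathway patterns the epiblast and induces mesendoderm through targets such as Gsc, Mixl1 and the Lefty genes, while Smad7 feeds back on the receptors. The 6 genes are introduced here by other functions, without excluding a part in these steps. Epha2 is a receptor tyrosine kinase for membrane-bound ephrin-A ligands, and Relt is an orphan receptor of the TNF receptor superfamily. Chst15 is a Golgi sulfotransferase that adds a further sulfate to chondroitin sulfate chains. Irf1 is a transcription factor best known from interferon responses, Prdm1 (Blimp1) is a repressor needed to specify primordial germ cells, and Nrarp is a Notch target that limits Notch signalling in return.

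The genes lie apart in the genome. In GRCm38.p6, Epha2 spans chr4:141301221-141329384, Relt chr7:100845847-100863489 and Chst15 chr7:132235779-132323534. Irf1 spans chr11:53770014-53778374, Prdm1 chr10:44437174-44528558 and Nrarp chr2:25180758-25183339. Their mean signals lay between 8.05 (Prdm1) and 10.97 (Irf1) on the log2 scale, at percentiles 54.8 and 86.0 of all genes. RefSeq gave 8 promoter windows for the 6 genes, with 2 windows for Irf1 and 2 overlapping ones for Chst15. Each ran from 250 bases before to 50 bases after an annotated start. Those of Prdm1 (chr10:44458699-44458998) and Chst15 (chr7:132317179-132317478 and chr7:132316977-132317276), on the minus strand, lie wholly inside the gene spans above. They are thus not at the 5′ ends of those spans. The second Irf1 window (chr11:53770223-53770522) also lies inside its span. Windows of 4 genes are shown because their Smad-type motifs differ most. Epha2 and Relt had no CAGAC, Nrarp had the most copies, and the first Irf1 window had the most GGCGC. Capitals mark CAGAC and GGCGC on either strand, both of them sequences that Smad proteins can bind, and in Irf1 also TTCNNNGAA, the motif of STAT factors.
Epha2: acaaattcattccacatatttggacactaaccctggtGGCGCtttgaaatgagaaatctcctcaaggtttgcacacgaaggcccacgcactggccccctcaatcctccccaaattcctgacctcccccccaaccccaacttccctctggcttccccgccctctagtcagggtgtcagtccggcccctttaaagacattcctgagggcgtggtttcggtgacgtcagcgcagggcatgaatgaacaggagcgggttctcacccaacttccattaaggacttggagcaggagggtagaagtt
Relt: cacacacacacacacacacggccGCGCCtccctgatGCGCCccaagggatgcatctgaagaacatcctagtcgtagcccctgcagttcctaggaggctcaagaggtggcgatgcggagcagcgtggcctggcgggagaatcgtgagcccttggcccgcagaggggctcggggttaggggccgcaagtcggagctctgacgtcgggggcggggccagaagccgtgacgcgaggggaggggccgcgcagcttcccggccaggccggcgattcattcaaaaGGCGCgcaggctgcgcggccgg
Irf1: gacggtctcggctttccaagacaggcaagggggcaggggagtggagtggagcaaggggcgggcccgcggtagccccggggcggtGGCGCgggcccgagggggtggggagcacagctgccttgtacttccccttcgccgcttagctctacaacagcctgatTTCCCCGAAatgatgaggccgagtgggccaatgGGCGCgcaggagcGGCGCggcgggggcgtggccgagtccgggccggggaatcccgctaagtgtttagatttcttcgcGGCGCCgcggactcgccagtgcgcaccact
Nrarp: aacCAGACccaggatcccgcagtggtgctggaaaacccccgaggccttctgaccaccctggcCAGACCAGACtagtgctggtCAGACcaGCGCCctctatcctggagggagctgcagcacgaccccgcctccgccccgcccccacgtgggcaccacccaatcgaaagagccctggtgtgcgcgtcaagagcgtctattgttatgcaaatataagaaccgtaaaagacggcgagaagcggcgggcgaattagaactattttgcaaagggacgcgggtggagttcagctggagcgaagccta
The windows are chr4:141300971-141301270 on the plus strand for Epha2, chr7:100863364-100863663 on the minus strand for Relt, chr11:53769764-53770063 on the plus strand for Irf1 and chr2:25180508-25180807 on the plus strand for Nrarp, each written 5′ to 3′. All 8 windows held GGCGC, against 36.9% of 32851 mouse windows of this length. Their GC content ran from 54.7% to 75.0%, against a median of 52.7%, and the share of all windows was not matched for GC content. CAGAC was in 5 of 8 windows, against 49.6% of all. In both overlapping Chst15 windows the copy is the same site. The 4 copies in Nrarp and the 3 in Prdm1 compare with 0.91% of windows that had 4 or more and 3.90% that had 3 or more. The palindrome GTCTAGAC, found in 0.21% of windows, was in 0 of 8. TGTNNATT, a FOXH1-type motif found in 12.2% of windows, was in 1 Chst15 window and in that of Epha2. TTCNNNGAA occurred in 8.30% of windows and among the 8 in Irf1 alone. TGGGAA, the core of the RBPJ motif through which Notch acts, occurred in 25.6% of windows and among the 8 in Prdm1 but not in Nrarp. A match describes these letters, overlapping copies counted, and not a bound site.

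The targeted genes and the cell type were read first. Trim33 kept 34.4% of its WT signal in Trim33-KD arrays (limma adjusted p = 0.0101), whereas the Smad4 signal in Smad4-null arrays was 115% of that in WT. No source used here places the Smad4 probes against the mutation, so they do not check that label. Of 7 epiblast markers all had a median log2 signal of 10.22 or more over the arrays. Marker signals summed on the linear scale were 39522.7 to 47220.8 for these 7 genes, and 194.6 to 363.6 for 7 leukocyte genes, a cell type in which Irf1, Prdm1 and Relt are well known; their median log2 signals ran from 1.85 for Ptprc to 6.72 for Csf1r. A narrower spread of log2 signal was seen on Smad4-null-ac replicate 1 (SD 3.12) and on WT-SB replicate 2 (SD 3.07) than on the other arrays (3.24 to 3.39).

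The receptor gene Epha2 was high on the activin arrays of Trim33-KD and WT. It read 10.69 and 10.76 on the log2 scale on Trim33-KD-ac arrays, against 9.36 and 9.22 on Trim33-KD-SB arrays. In WT it read 11.01 and 10.88 with activin, against 9.57 and 9.27 with SB431542. In Smad4-null it read 9.79 and 9.90 with activin, against 9.53 and 9.63 with SB431542. The treatments did not overlap in any genotype, but the Smad4-null-ac arrays stood nearer to every SB array than to the WT-ac arrays. The log2 difference of activin minus SB431542 was 0.27 (SE 0.14) in Smad4-null, 1.44 (SE 0.14) in Trim33-KD and 1.53 (SE 0.14) in WT.

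Relt, the TNF receptor family gene, showed no rise with activin in Smad4-null arrays. It read 7.70 and 7.83 with activin there, against 7.59 and 8.25 with SB431542. It read 9.38 and 9.64 on Trim33-KD-ac arrays, against 7.82 and 8.20 on Trim33-KD-SB arrays. In WT it read 9.72 and 9.67 with activin, against 8.25 and 8.27 with SB431542. In Smad4-null the treatments overlapped, while in both other genotypes they were well apart. The differences were -0.16 in Smad4-null, 1.50 in Trim33-KD and 1.43 in WT (SE 0.23 each). The Smad4-null value rests on the 8.25 of SB replicate 2 for its sign: without that array it was 0.17.

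The sulfotransferase gene Chst15 kept more of its difference in Smad4-null. Its brighter probe set read 9.34 and 9.75 on Smad4-null-ac arrays, against 8.99 and 8.56 on Smad4-null-SB arrays. It read 10.50 and 10.17 on Trim33-KD-ac arrays, against 8.90 and 8.76 on Trim33-KD-SB arrays. In WT it read 10.22 and 10.10 with activin, against 8.76 on both SB arrays. All SB arrays thus lay between 8.56 and 8.99, whatever the genotype. The differences were 0.77 in Smad4-null, 1.51 in Trim33-KD and 1.40 in WT (SE 0.20 each). A dimmer Chst15 probe set, at 3.17 to 7.98 over the arrays, had differences of 0.73, 3.46 and 2.30 in the same order of genotypes, with an SE of 0.72. Its large values came from low and scattered SB signals, which were 5.39 and 3.17 in Trim33-KD and 6.12 and 4.81 in WT.

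**Figure D1:**
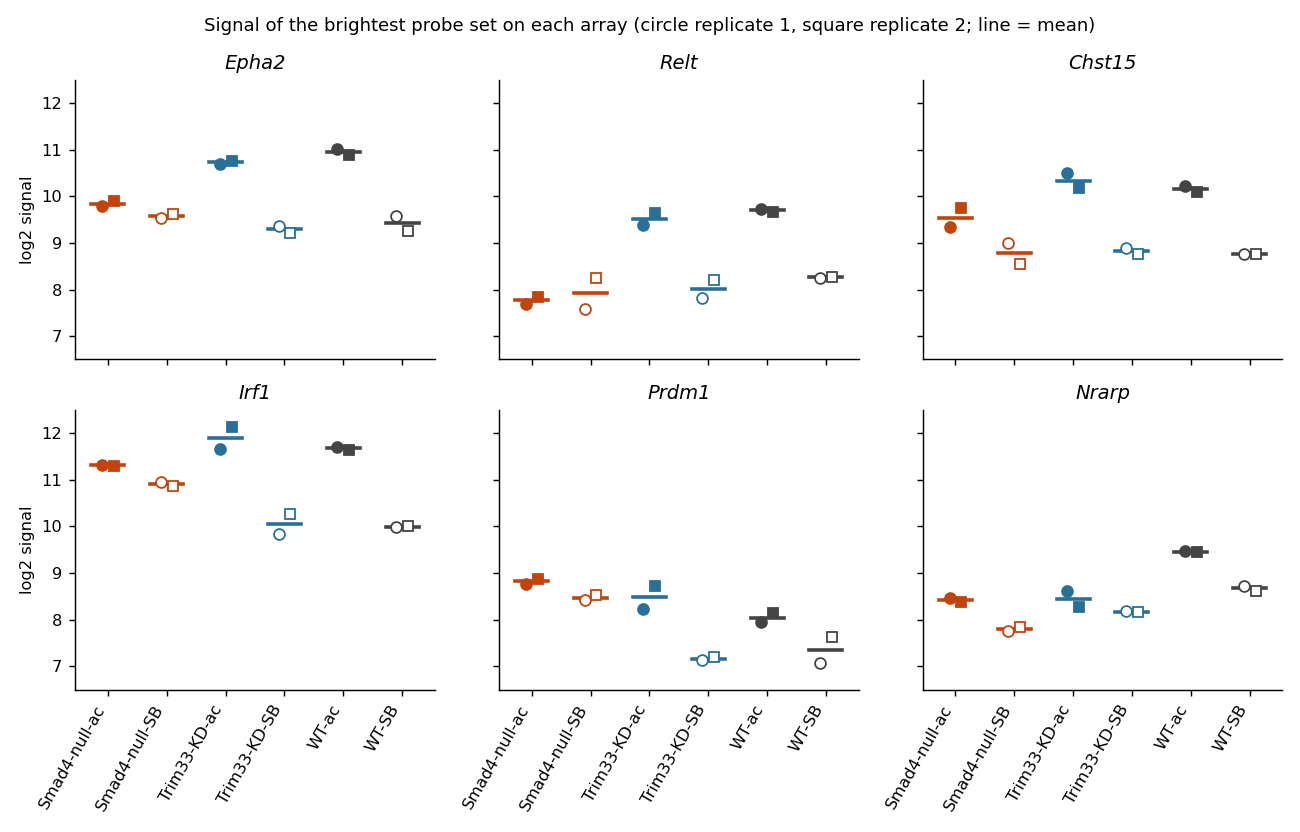
Log2 signal of the brightest probe set of each gene on every array, by group on the x axis; filled symbols are activin arrays, open symbols SB431542 arrays, circles replicate 1, squares replicate 2, and lines the mean of 2. Epha2 and Relt on Smad4-null-ac arrays stayed near the SB arrays, whereas Irf1 and Prdm1 stood high on Smad4-null-SB arrays and Nrarp was highest on WT arrays.

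Among the regulators, Irf1 stood high on Smad4-null arrays even with the inhibitor. It read 11.31 and 11.30 on Smad4-null-ac arrays, against 10.95 and 10.87 on Smad4-null-SB arrays. It read 11.66 and 12.12 on Trim33-KD-ac arrays, against 9.84 and 10.26 on Trim33-KD-SB arrays. In WT it read 11.71 and 11.63 with activin, against 9.98 and 10.01 with SB431542. The gap between treatments was narrow in Smad4-null chiefly on the SB side, since the activin arrays of Smad4-null and WT were closer to each other than their SB arrays were. Smad4-null minus WT was -0.36 with activin and 0.92 with SB431542, and the responses were 0.40 in Smad4-null, 1.84 in Trim33-KD and 1.68 in WT (SE 0.19 each).

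Prdm1, the germ cell repressor gene, was high in Smad4-null with either treatment. It read 8.77 and 8.87 on Smad4-null-ac arrays, against 8.41 and 8.53 on Smad4-null-SB arrays. It read 8.22 and 8.73 on Trim33-KD-ac arrays, against 7.13 and 7.20 on Trim33-KD-SB arrays. In WT it read 7.94 and 8.15 with activin, against 7.07 and 7.63 with SB431542. Every Smad4-null array, including those with the inhibitor, lay above every WT array. The responses were 0.35 in Smad4-null, 1.31 in Trim33-KD and 0.69 in WT (SE 0.23 each), and without the arrays of narrow spread the WT value was 0.97.

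Nrarp, the Notch feedback gene, was highest in WT with either treatment. It read 8.45 and 8.38 on Smad4-null-ac arrays, against 7.74 and 7.83 on Smad4-null-SB arrays. It read 8.62 and 8.28 on Trim33-KD-ac arrays, against 8.17 and 8.16 on Trim33-KD-SB arrays. In WT it read 9.47 and 9.45 with activin, against 8.73 and 8.61 with SB431542. The treatments did not overlap in any genotype, though Trim33-KD-ac replicate 2 lay only slightly above its SB arrays. The responses were 0.63 in Smad4-null, 0.28 in Trim33-KD and 0.79 in WT (SE 0.13 each), so that here the smallest value belonged to Trim33-KD. A dimmer Nrarp probe set gave 0.54, 0.50 and 1.02 in the same order (SE 0.30).

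Over the 6 genes the median response was 0.37 in Smad4-null, 1.47 in Trim33-KD and 1.42 in WT, beside medians over all genes of 0.06, -0.05 and -0.05. Activin arrays lay above SB arrays for 6 of 6 genes in Trim33-KD, where 10.8% of all genes did so, and for 6 of 6 in WT, where 9.66% did; both counts follow from how the genes were chosen. The 14 classical nodal targets had medians of 0.36, 1.14 and 1.29 in the same order. Smad4-null minus WT responses, given without a test because they hold the contrast used for the choice, were -1.59 for Relt, -1.28 for Irf1, -1.26 for Epha2, -0.63 for Chst15, -0.34 for Prdm1 and -0.16 for Nrarp. Those of Trim33-KD minus WT were 0.62 for Prdm1, 0.16 for Irf1, 0.11 for Chst15, 0.07 for Relt, -0.09 for Epha2 and -0.51 for Nrarp. Without both arrays of narrow spread the gap between Trim33-KD and WT responses was 0.34 for Prdm1, -0.45 for Nrarp and 0.07 for Epha2. In the dimmer Chst15 probe set it was 1.17 (SE 1.01).

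**Figure D2:**
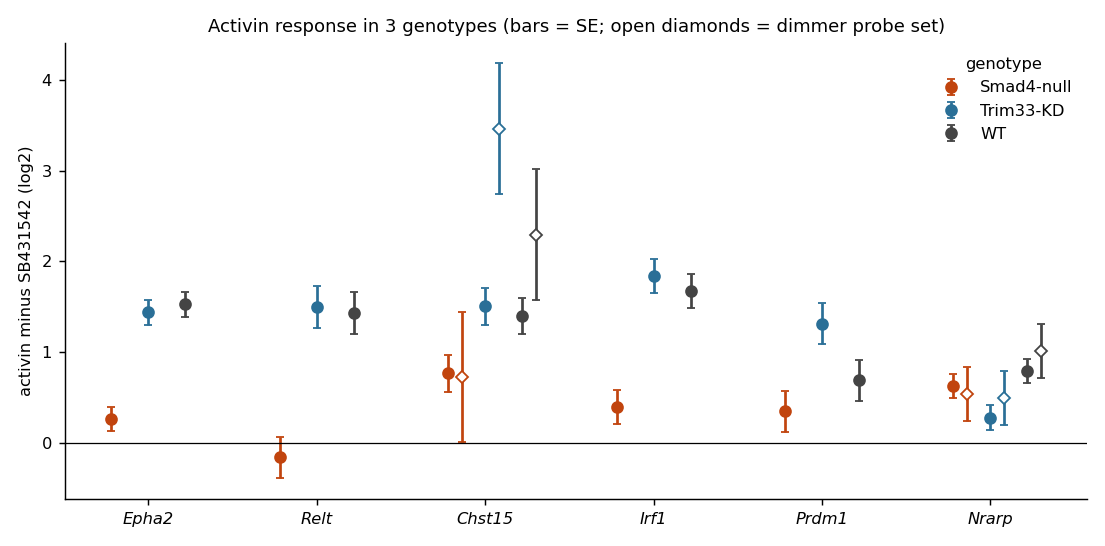
Activin minus SB431542 on the log2 scale (y axis) for each gene (x axis), in Smad4-null, Trim33-KD and WT; bars are the SE of limma's fit with 2 arrays a group, and open diamonds are the dimmer probe sets of Chst15 and Nrarp. Trim33-KD and WT lie close together for Epha2, Relt and Irf1, with Smad4-null below them.

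The Smad4-null response took no part in choosing the genes and was tested. In limma 0 of the 6 genes passed after Benjamini-Hochberg adjustment over 18193 genes, and over all of these 0% were raised and 0.011% lowered. Nrarp and Chst15, 2 of the 6, had an unadjusted p under 0.05, as had 6.81% of all genes. The 95% interval was 0.32 to 0.94 for Nrarp (limma adjusted p = 0.374) and 0.29 to 1.24 for Chst15 (adjusted p = 0.531). It was -0.05 to 0.58 for Epha2 (limma adjusted p = 0.777) and -0.69 to 0.38 for Relt (adjusted p = 0.914). Irf1 had -0.04 to 0.83 (adjusted p = 0.758) and Prdm1 -0.18 to 0.88 (adjusted p = 0.821). Activin arrays lay above SB arrays for 5 of 6 genes, all but Relt, but so they did for 28.7% of all genes in this genotype. Median centring of the arrays moved the median of all genes in this response to -0.10, against 0.06 as deposited. With it the response was 0.11 for Epha2, 0.24 for Irf1, 0.19 for Prdm1, -0.32 for Relt, 0.61 for Chst15 and 0.47 for Nrarp.

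Levels averaged over both treatments were then compared between Smad4-null and WT. The WT mean holds the WT-ac arrays, in which the choice favoured high values, and the WT-SB arrays, in which it favoured low ones. Where SB431542 levels are alike, a smaller response in Smad4-null can by itself lower the difference. Prdm1 rose and Nrarp, Relt and Epha2 fell, while Irf1 and Chst15 did not pass. Nrarp was 8.10 ± 0.37 in Smad4-null and 9.07 ± 0.46 in WT (log2 mean ± SD, n = 4 arrays each, both treatments), a difference of -0.96 (SE 0.09, limma adjusted p = 0.000702). The dimmer Nrarp probe set gave -1.13. Relt was 7.84 ± 0.29 in Smad4-null and 8.98 ± 0.83 in WT, a difference of -1.13 (SE 0.16, limma adjusted p = 0.00331). The wide spread of Relt in WT is that between the treatments, since Smad4-null minus WT was -1.93 with activin and -0.34 with SB431542. Prdm1 was 8.64 ± 0.21 in Smad4-null and 7.70 ± 0.47 in WT, a difference of 0.95 (1.93-fold, SE 0.16, limma adjusted p = 0.00649). It was above zero in either treatment, at 0.78 with activin and 1.12 with SB431542. Without both arrays of narrow spread these values were 0.83 and 1.40.

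Epha2 fell less, with 9.71 ± 0.17 in Smad4-null and 10.18 ± 0.89 in WT (log2 mean ± SD, n = 4 each; difference -0.47, SE 0.10, limma adjusted p = 0.0135). This mean joins unlike values: Smad4-null minus WT was -1.10 with activin and 0.16 with SB431542. The Epha2 call was lost without WT-ac replicate 1 (adjusted p = 0.0528) or Smad4-null-SB replicate 1 (adjusted p = 0.0551) and with median centring (adjusted p = 0.0762), over a range of 0.00169 to 0.0762 among all alternatives. Irf1 had a difference of 0.28 with a 95% interval of -0.03 to 0.59 (limma adjusted p = 0.21), and Chst15 -0.30 with an interval of -0.64 to 0.03 (adjusted p = 0.206). Over all genes 7.12% were raised and 11.3% lowered, and 30.5% had an unadjusted p under 0.05. The 6 genes lie above the median of mean signal, and a fit to the 9097 genes there called 1419 raised and 1964 lowered. Thus 1 raised and 3 lowered of 6 stand in a comparison in which many genes differed, and more so among brighter genes. The genotypes' arrays did not overlap for Prdm1, higher in Smad4-null as were 10.8% of all genes, and for Nrarp, lower as were 15% of all genes. In bulk samples such as these, fewer cells of a type and less RNA per cell cannot be told apart. Summed linear signals of 5 endothelial markers were 605.3 to 797.2 in Smad4-null and 328.4 to 459.5 in WT arrays, with Pecam1 at a median log2 signal of 8.13 over all arrays, Tek at 6.51, Cdh5 at 5.41, Emcn at 4.48 and Tie1 at 3.73. Those of 6 trophectoderm markers were 1759.8 to 1905.3 in Smad4-null and 2136.4 to 2608.4 in WT, with medians of 10.77 for Krt18, 8.03 for Cdx2, 6.69 for Hand1, 6.49 for Krt7, 3.66 for Elf5 and 2.01 for Gata3. Those of 7 extraembryonic endoderm markers were 718.5 to 858.6 in Smad4-null and 946.7 to 1096.4 in WT, with medians of 8.82 for Dab2, 6.87 for Gata6, 6.71 for Lama1, 6.29 for Gata4, 6.10 for Sox17, 5.72 for Sox7 and 1.58 for Afp. On the linear scale the brightest marker weighs most in each sum, so a sum need not measure a number of cells. The part of these cell types in the genotype differences was not tested.

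In Trim33-KD the level of 1 gene differed from WT. Nrarp was 8.31 ± 0.22 in Trim33-KD and 9.07 ± 0.46 in WT (log2 mean ± SD, n = 4 arrays each) and fell by 0.76 on the log2 scale (SE 0.09, limma adjusted p = 0.0266). The dimmer Nrarp probe set gave -0.81 and did not pass (adjusted p = 0.184 over all probe sets). The highest Trim33-KD array, at 8.62 with activin, just reached the lowest WT array, at 8.61 with SB431542. Without overlap, 0 of the 6 genes were higher and 0 lower in Trim33-KD, beside 6.12% and 6.28% of all genes. Over all genes 0.445% were raised and 0.203% lowered, that is 81 and 37 genes with 17% at an unadjusted p under 0.05, and 222 and 24 with median centring or 119 and 28 with quantile normalization. The Nrarp call held in 7 of 23 alternatives; its value ran from -0.84 to -0.56 and its adjusted p from 0.000973 to 0.137. It was lost without WT-ac replicate 1 (adjusted p = 0.129), WT-ac replicate 2 (0.0813), either WT-SB array (0.0737 and 0.0607), Trim33-KD-ac replicate 2 (0.0703), either Trim33-KD-SB array (0.0628 and 0.103) or any Smad4-null array (0.0626 to 0.0739). The other 5 genes differed by -0.22 (Relt) to 0.14 (Irf1), with limma adjusted p of 0.398 to 0.74. Their 95% intervals reached at most 0.60 from zero, on the lower side of Relt. Summed trophectoderm marker signals were 2359.7 to 4715.5 in Trim33-KD and 2136.4 to 2608.4 in WT, with Krt18 the brightest of them; their part in the Nrarp difference was not tested.

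**Figure D3:**
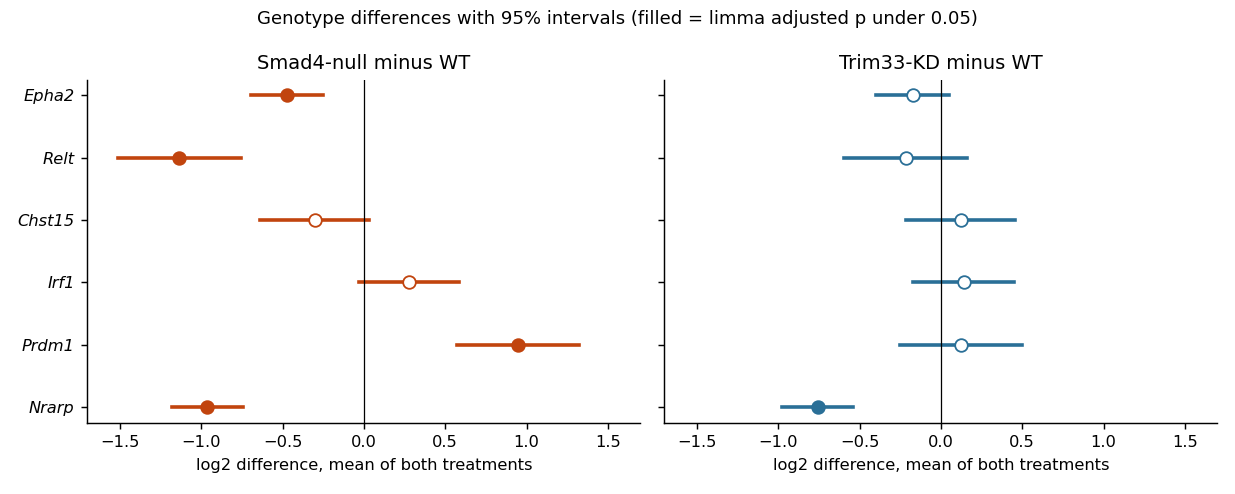
Log2 differences in level between genotypes, averaged over both treatments (x axis), for each gene (y axis); left Smad4-null minus WT, right Trim33-KD minus WT, with 95% intervals from limma and filled points for an adjusted p under 0.05. Nrarp is lowered in both panels, and Prdm1 is raised in the left panel.

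Genes that work with each of the 6 were read in the same Smad4-null minus WT comparison, in which 7.12% of all genes were raised and 11.3% lowered by limma. Of 20 Eph receptors and ephrins, 9 fell and 1 rose, with a median of -0.46 beside -0.03 for all genes. Epha1 fell by 3.08 on the log2 scale (adjusted p = 3.8e-05), Ephb6 by 1.40, Epha7 by 1.24 and Efna1, a ligand of Epha2, by 1.09, while Ephb3 rose by 0.55. The count of 10 was 5 without WT-ac replicate 1 or Smad4-null-SB replicate 1 and 6 without Smad4-null-SB replicate 2. Of 20 genes of the RELT family and the TNF receptors, 8 fell and 0 rose (median -0.18). The lowest were Tnfrsf19 (-3.05), the death receptor gene Tnfrsf10b (-1.26), the TNF receptor gene Tnfrsf1a (-1.21) and Relt itself. The count of 8 was 5 to 7 under all 23 alternatives. It was 5 without both arrays of narrow spread and 5 above the median of mean signal.

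Of 19 chondroitin sulfate enzymes, 4 fell and 1 rose (median -0.20). The sulfotransferase gene Chst7 fell by 1.53, the polymerizing factor gene Chpf by 0.60, and Chst13 and Chsy1 by 0.57 each, while the epimerase gene Dse rose by 0.71. This count of 5 was 1 without either WT-ac array or either Smad4-null-SB array, 2 without Smad4-null-ac replicate 1, and 3 without Smad4-null-ac replicate 2, WT-SB replicate 1 or either Trim33-KD-SB array. It was 2, both lowered, with median centring and 3 with quantile normalization, every probe set or only the groups compared. Of 21 interferon factors and targets, 5 fell and 0 rose (median -0.08). They were the immunoproteasome gene Psmb8 (-1.46), Irf9 (-1.09), which encodes the DNA-binding part of the interferon-activated STAT complex, the GTPase gene Gbp2 (-0.95), the MHC class I light chain gene B2m (-0.60) and the peptide transporter gene Tap1 (-0.60). Irf1 itself had 0.28 in this comparison. The count of 5 was 3 without either Smad4-null-ac array, WT-ac replicate 2 or Smad4-null-SB replicate 2.

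Of 11 primordial germ cell genes, 5 rose and 0 fell (median 0.30): the RNA-binding protein gene Dazl (1.53), Prdm14 (1.40), which encodes a further PR-domain regulator of germ cells, Prdm1, and the membrane protein genes Ifitm1 (0.61) and Ifitm3 (0.50). The count was 3 without WT-ac replicate 1. Tfap2c, which acts beside Prdm1 and Prdm14 in germ cell specification, had 0.30 (adjusted p = 0.275). Dppa3, a marker of these cells, had 0.17 (adjusted p = 0.633). The remaining uncalled genes of the list went the other way, with Dnd1 at -0.23, Lin28a at -0.18, Ddx4 at -0.06 and Kit at -0.02. All of these uncalled genes are named with their values known. Of 20 Notch pathway genes, 4 rose and 5 fell (median -0.02). The ligand gene Dll1 rose by 1.29 and Lfng, whose enzyme modifies Notch, by 0.74, whereas Dll3 fell by 1.08 along with Nrarp. Hes1, the classical Notch target, had 0.56 (adjusted p = 0.281) and is also named with its value known. The count of 9 was 4 without both arrays of narrow spread. In Trim33-KD minus WT, Nrarp was the only called gene in these 6 lists, and in the Smad4-null response 0 genes of these lists passed in limma. The 14 classical nodal targets had 11 lowered and 2 raised in Smad4-null minus WT (median -1.54), with Gsc at -4.38, Mixl1 at -4.26, Smad7 at -1.06 and Lefty1 at 1.32.

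**Figure D4:**
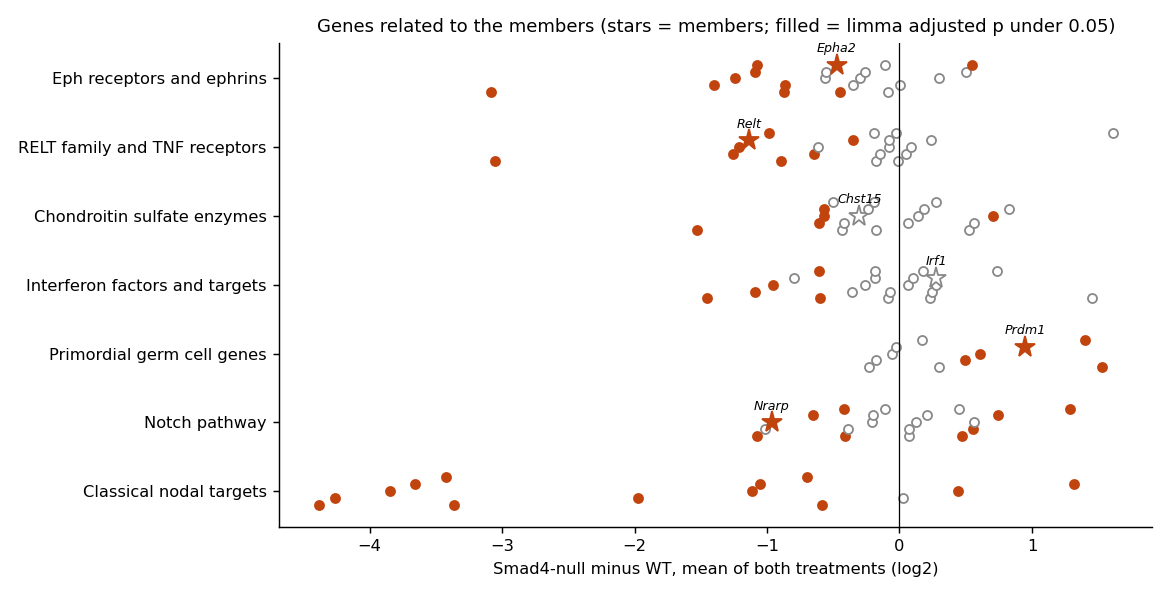
Smad4-null minus WT log2 differences averaged over both treatments (x axis) for the genes of 7 lists (rows); each symbol is 1 gene, stars are the 6 genes described here, and filled symbols had a limma adjusted p under 0.05. The classical nodal targets reach -4.38, further down than any of the 6 genes. In the germ cell row the filled symbols lie to the right and the open ones on both sides of zero.

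Over the 12 arrays the 6 genes fell into unlike patterns, given as Pearson correlations that describe arrays sharing groups and treatments. Among these are the WT and Trim33-KD arrays by which the genes were chosen. Likeness to each other and to other activin-raised genes thus follows in part from the choice. Epha2 and Chst15 were closest to each other (0.93), Epha2 and Relt had 0.89, and Epha2 and Irf1 0.87. Prdm1 went with Irf1 (0.77) but not with Relt (0.09) or Nrarp (-0.14). Among genes above the median of mean signal, Epha2 was most like Smad7 (0.94), Pmepa1 (0.94) and Sertad4 (0.93). Chst15 was most like Epha2, Sertad4 (0.92) and Pmepa1 (0.90), and Relt like Pmepa1 (0.95), Fzd10 (0.94) and Myc (0.93). Irf1 had Rnd3 (0.94), Hes1 (0.93) and Fgf15 (0.92) nearest to it. Nrarp had Vangl1 (0.91), Has2 (0.90) and Tgif2 (0.90), and Prdm1 had Skil (0.96), Dmtn (0.94) and Sgk1 (0.93). The median correlation with all such genes was between -0.07 and -0.02 for each of the 6.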

How the data were processed

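Total RNA was biotin-labelled and hybridized to Affymetrix mouse arrays, 1 per sample, per the labels' protocols. Judged from their range, the authors deposited log2 signals, 1 value per probe set and array. The submitters' processing notes name limma without a version, and how probes were summarized into probe sets is not stated in the sources used here. No pseudocount or rescaling was applied. Of 45101 probe sets, 64 were controls, 34945 had 1 gene symbol in the platform table, 932 several and 9160 none; the brightest stood for each of 18193 genes.

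In R 4.3.3 with limma 3.58.1 (lmFit, eBayes), a model with 1 mean per group was fitted to all 12 arrays (6 residual degrees of freedom), with Benjamini-Hochberg adjustment over all genes and a threshold of 0.05, two-sided. The fit was also tested on simulated data.

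The 6 genes, the lists, the tests and the alternatives were chosen with earlier results of these data known. Named are the 6 genes, the 3 most correlated genes of each, up to 4 called genes of each list with the largest difference, and Trim33, Smad4, Smad7, Lefty1, Gsc and Mixl1; cell type markers, genes that complete a count of 5 or fewer and those said to be named with their values known fall outside this rule. Promoter windows came from RefSeq (GRCm38.p6). Plots used matplotlib 3.10.9 in Python 3.11.15.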

Additional observations from a re-analysis of the deposited data

How the results depend on the processing

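The 23 alternatives were other scalings, filters, probe set choices, priors, weights, a replicate block, a fit to only the groups compared, and arrays left out. The Smad4-null response of the 6 genes had 0 calls under each of them. In Smad4-null minus WT the 6 genes gave 3 to 4 calls throughout, 3 to 4 without any 1 array; Nrarp, Relt and Prdm1 passed under every one. In Trim33-KD minus WT the 1 call, Nrarp, became 0 with median centring, the mean of probe sets, every probe set, only the groups compared, and without both arrays of narrow spread, and was 0 to 1 without any 1 array. The causes were not tested, except that testing every probe set adjusts over 34945 and only the groups compared over fewer arrays. Epha2 lost its Smad4-null minus WT call under 3 alternatives. Uncalled values changed sign for Relt in the Smad4-null response (0.17 without Smad4-null-SB replicate 2) and, in Trim33-KD minus WT, for Epha2 (0.03 with median centring), Chst15 (-0.24 with the mean of probe sets) and Prdm1 (-0.02 without WT-SB replicate 1, -0.0047 without Trim33-KD-ac replicate 2).

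Counts over all genes moved more. For the Smad4-null response, 2 genes became 6 (1 raised, 5 lowered) with quantile normalization, 0 above the median of mean signal, 11 (all raised) with values floored at 64, 1 with every probe set, 0 with a trended and robust prior, 9 with array weights, 0 with only the groups compared, and 0 to 6 without any 1 array. For Smad4-null minus WT, 3356 became 2026 without both arrays of narrow spread and 2121 to 3132 without any 1 array. For Trim33-KD minus WT, 118 became 246 with median centring, 789 above the median of mean signal, 230 with the floor, 52 with the mean of probe sets, 54 with every probe set, 637 with the trended and robust prior, 65 with array weights, 2 with only the groups compared, 21 without both arrays of narrow spread, and 10 to 103 without any 1 array.

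With the replicate block the 6 genes had 0, 4 and 1 calls in the 3 comparisons, the same numbers as without it, and all genes 2, 3100 and 79. Same-numbered arrays of different groups had deviations with a correlation of -0.299 to 0.386 (median -0.06 over 15 pairs of groups). Between the activin and SB431542 arrays of 1 genotype it was 0.386 in WT, 0.335 in Trim33-KD and -0.192 in Smad4-null. The numbers were not taken to pair arrays. Pairing within a genotype was not tested, since the block is common to all groups. If the treatments of a genotype shared cultures, the p-values of the genotype differences may be too small. Detection calls were not used here, so signal over background was not judged, and the dim Chst15 probe set is the least certain.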
